A study of Mus musculus with 6 samples.

Results

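Gli1+ mesenchymal cells of the injured Achilles tendon were compared between 21 and 7 days post injury (dpi). A cell was counted as mesenchymal when it held at least 1 unique molecular identifier (UMI, a counted mRNA molecule) of Pdgfra, the platelet-derived growth factor receptor of fibroblasts and their progenitors, and no UMI of Ptprc (CD45, blood cells) or Cdh5 (VE-cadherin, endothelium). Cells also needed at least 1000 UMIs, at least 200 genes and at most 5% mitochondrial UMIs. This gate held 5221 Gli1+ cells at 7 dpi and 5805 at 21 dpi, 11026 of the 63329 cells that passed the filters in all 6 libraries.

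All mice carried Gli1-CreERT2 and Ai9, a tdTomato reporter that Cre switches on, and received tamoxifen, so that cells expressing Gli1 at labelling and their descendants stayed red. The Achilles tendon was clamped repeatedly with forceps and cut (tenotomy), and tissue was collected at 7 or 21 dpi, and uninjured mice served as controls. Labelled (Gli1+) and unlabelled (Gli1-) cells were sorted, which gave 1 library for each sort and time from 8 mice per time point, 24 mice in all. Since the reporter is permanent, a Gli1+ cell need not express Gli1 when it is collected. With 1 library per time point no test was possible. The intervals below are 95% limits that cover counting error and not the spread between mice. Those of levels and ratios leave out the spread between cells as well.

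Tendon injury of this kind is followed by heterotopic ossification, in which cartilage and then bone form inside the tendon. Fibroblast-like progenitors first proliferate and lay down a provisional matrix, and some of their descendants later make the collagen and proteoglycans of cartilage, which bone replaces. The comparison of 21 with 7 dpi asks how the Gli1 lineage differs between the fibroproliferative and the cartilage-forming stage.

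Levels are given as CPM, the UMIs of a gene scaled to a common total of autosomal UMIs, and ratios as log2 of 21 over 7 dpi. The gated cells expressed fibroblast genes, with the collagen gene Col1a1 at 16531 CPM at 7 dpi and 16836 CPM at 21 dpi, and the limb mesenchyme factor Prrx1 at 391 and 385 CPM. The 6 endothelial markers summed to 13.9 CPM at 7 dpi and 10.3 CPM at 21 dpi, with 1 of them at 0 in both (Cdh5, by the gate). The 10 immune markers summed to 40.1 and 35.9 CPM, with Ptprc (by the gate) and Cd3e at 0 in both. The gated cells held 63632851 UMIs at 7 dpi and 65877546 at 21 dpi, with medians of 11028 and 9946 UMIs and 3497 and 3165 genes per cell. The 2 libraries shared 6 gated barcodes.

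Several features set the 7 dpi library apart from the 21 dpi library, and they bear on every result below. The labels give an equal sex distribution over all mice, but at 7 dpi 4076 gated cells held a Y-linked and no Xist UMI and 0 held Xist alone, whereas at 21 dpi 5474 held Xist alone and 5 a Y-linked UMI alone. Time point and sex of the mice can therefore not be told apart, and genes on the sex chromosomes were left out. The 2 uninjured libraries differed in sex as well. Xist alone was held by 1014 gated Gli1+ and 0 Gli1- cells, and a Y-linked UMI alone by 377 and 3367. Uninjured levels of the 2 sorts, given below, therefore differ in sex makeup as well as in sort. The 7 epidermal markers (Krt5, Krt14, Krt15, Krt1, Krt10, Dsp and Sfn) summed to 4772 CPM at 7 dpi and 842 CPM at 21 dpi, with none at 0. At 7 dpi 99.7% of gated cells held a Krt5 or Krt14 UMI, against 55.6% at 21 dpi, and cells with a Ptprc or Cdh5 UMI and no Pdgfra UMI (180 and 330 cells, called other cells below) carried 9055 and 1897 CPM of the same 7 markers. The Gli1- libraries held 83.6 and 107 CPM of them. Gated Gli1+ cells with 10 or more Krt5 and Krt14 UMIs were 44.6% at 7 dpi and 2.39% at 21 dpi. Leaving them out, as done below, therefore removed cells unevenly between the times. The 4 hemoglobin genes summed to 56.0 and 2.67 CPM and the 5 skeletal muscle markers to 45.8 and 9.73 CPM, both higher at 7 dpi, while the 6 mural markers summed to 75.5 and 143 CPM. The part of these cells in the results was not tested. In other cells the 8 mesenchymal markers summed to 14467 CPM at 7 dpi and 6606 CPM at 21 dpi, so mesenchymal RNA there was also higher at 7 dpi.

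Of 8511 autosomal genes with a mean of at least 10 CPM, 231 (2.71%) were at least 2-fold higher at 21 dpi and 311 (3.65%) at least 2-fold lower. The median log2 ratio of 21 over 7 dpi was -0.07. Counting intervals excluded no change for 6987 of the 8511 genes, among them all 231 and all 311, so they do not set the called genes apart. Under TMM scaling, which moved every log2 ratio up by 0.14, 321 genes were higher and 237 lower, so the balance between both directions depended on the scaling. Of the higher genes 58 passed 4-fold, and of the lower genes 72 did.

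**Figure D1:**
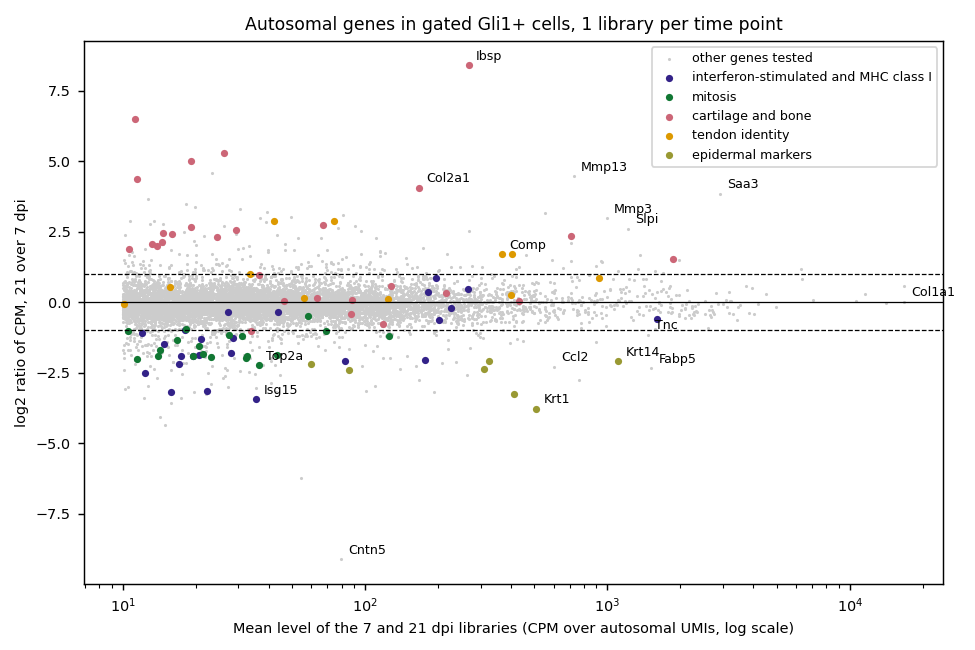
Mean level (x axis, CPM, log scale) against the log2 ratio of 21 over 7 dpi (y axis) for the 8511 autosomal genes tested in gated Gli1+ cells, each point 1 gene and dashed lines at 2-fold. Cartilage and bone genes reach the top of the plot with Ibsp at 8.40, interferon-stimulated and mitosis genes lie mostly under the lower dashed line, and the 7 epidermal markers all lie between -2.08 and -3.78.

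Among the 8 highest ratios at a mean of at least 500 CPM were the acute phase genes Saa3 and Hp, the metalloprotease genes Mmp13 and Mmp3, and Ctla2a, Slpi, Spp1 and Cxcl14. Saa3, a serum amyloid A made by fibroblasts and macrophages in inflammation, stood at 379 CPM at 7 dpi and 5470 CPM at 21 dpi in Gli1+ cells, a log2 ratio of 3.85 (interval 3.83 to 3.87). Gli1- cells held 424 and 7183 CPM at these times, and uninjured Gli1+ and Gli1- cells 6.01 and 12.8 CPM. Saa3 was thus low before injury, intermediate at 7 dpi and highest at 21 dpi in both sorts. Mmp13, a collagenase of hypertrophic cartilage and of inflamed fibroblasts, was at 62.4 CPM at 7 dpi and 1392 CPM at 21 dpi (log2 ratio 4.48), where Gli1- cells held 39.2 and 1777 CPM. Its uninjured levels were 12.7 CPM in Gli1+ and 4.30 CPM in Gli1- cells. Mmp3, stromelysin, was at 224 and 1761 CPM (2.98), and Mmp10, a second stromelysin encoded near it, at 5.67 and 55.6 CPM (3.29).

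Ctla2a, a cysteine protease inhibitor, was at 112 and 998 CPM (3.15), under the 1120 and 1830.4 CPM of other cells, and 72.2% of thinned endothelial-gated cells held it at 21 dpi against 29.5% of the mesenchymal gate. Other secreted factors were higher too. Slpi, a secreted inhibitor of leukocyte proteases, was at 341 and 2086 CPM (2.61), Hp, the hemoglobin scavenger haptoglobin, at 223 and 1188 CPM (2.42), and Lcn2, an iron-sequestering acute phase protein, at 51.9 and 179 CPM (1.78). Il11, a cytokine of the IL-6 family, was at 9.57 and 68.4 CPM (2.84). Of the 20 tested genes in the acute phase and IL-6 list, 4 were at least 2-fold higher (Saa3, Il11, Hp and Lcn2) and 1 was lower, Lif, a related cytokine, at 35.6 and 13.3 CPM (-1.43). The median of that list was 0.19. Il6 itself was at 86.3 and 135 CPM and Socs3, a feedback inhibitor of the pathway, at 493 and 919 CPM, neither past 2-fold.

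Among 23 tested proteases and inhibitors 3 were higher (Mmp13, Mmp3 and Ctsk) and 1 lower, with a median of 0.52. Ctsk, cathepsin K, a collagen-degrading lysosomal protease, was at 310.4 and 877 CPM (1.498). Adam12, a membrane protease of activated mesenchyme, was lower, at 316 and 126 CPM (-1.33). Mmp14, the membrane collagenase, at 352 and 542 CPM and Timp2, a metalloprotease inhibitor, at 1006 and 1788 CPM stayed within 2-fold. Cemip, which degrades hyaluronan, was at 21.5 and 133 CPM (2.63), while Has2, a hyaluronan synthase, was at 78.2 and 35.8 CPM (-1.13). These were the 2 of 9 tested hyaluronan genes past 2-fold, and the list median was 0.11.

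Fos and Jun proteins bind the AP-1 letters TGANTCA, which are a known element of stromelysin and collagenase promoters, so the promoters of the leading higher genes were searched. RefSeq promoter sequences (GRCm38.p6, 250 bases before to 50 after the start) were at hand for 13 of the 15 genes with the highest ratio at a mean of at least 20 CPM. On either strand 4 of the 13 (30.8%) held the letters, as did 438 of the 6766 matched promoters of tested genes (6.47%). Among all genes at least 2-fold higher 24 of 161 matched promoters (14.9%) held them, and among those at least 2-fold lower 31 of 224 (13.8%). A match describes letters and not a bound site. The stretches of the 3 metalloprotease genes, which lie on chromosome 9, are shown with the matching letters in capitals.
Mmp13, chr9:7272459-7272505, plus strand: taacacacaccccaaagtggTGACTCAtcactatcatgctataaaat
Mmp3, chr9:7445756-7445802, plus strand: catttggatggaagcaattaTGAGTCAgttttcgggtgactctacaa
Mmp10, chr9:7502259-7502305, plus strand: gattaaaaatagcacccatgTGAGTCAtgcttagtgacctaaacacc
In these windows the letters ended 29 (Mmp13), 40 (Mmp3) and 57 (Mmp10) bases before the start. The genes of Fos and Jun proteins themselves stayed within 2-fold, with Fos at 3263 and 4635 CPM and Jun at 2789 and 3579 CPM. Of 26 tested immediate early and heat shock genes 1 was higher, the chaperone gene Hspa1b (75.2 and 156 CPM, 1.05), and 1 lower, the transcription factor gene Egr3 (40.5 and 18.4 CPM, -1.13), with a median of 0.27. These counts lie near the 2.71% higher and 3.65% lower of all tested genes.

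Cartilage genes were higher at 21 dpi as a list. Of 18 tested members 12 were at least 2-fold higher and 1 lower, and the median was 2.19. Col2a1, the main cartilage collagen, stood at 18.7 CPM at 7 dpi and 314 CPM at 21 dpi (4.07, interval 3.98 to 4.15), where Gli1- cells held 93.7 and 737 CPM. Its uninjured levels were 42.0 CPM in Gli1+ and 0.85 CPM in Gli1- cells. Col10a1, the collagen of hypertrophic chondrocytes, had 15 UMIs at 7 dpi and 1388 at 21 dpi (6.48, interval 5.76 to 7.33). Snorc, a chondrocyte membrane proteoglycan, was at 1.15 and 37.0 CPM (5.01), and Matn4, a matrilin of cartilage matrix, at 17.5 and 117 CPM (2.74). Transcription factors of the lineage were closer to the median of all genes. Sox9, required for chondrocyte formation, was at 86.4 and 90.4 CPM (0.06), Sox5 at 191 and 239 CPM (0.32), and Sox6 at 45.2 and 22.3 CPM (-1.02), while Acan, the main cartilage proteoglycan, was at 102 and 153 CPM (0.58).

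Bone and mineral genes showed 6 of 10 tested members higher and none lower, with a median of 1.84. Ibsp and Bglap passed the mean of 10 CPM only through 21 dpi, so these values are partly set by that filter. Without the cells that held cartilage or bone genes, picked with 3 members of this list among others, the median was 0.18 over 6 members. Ibsp, the bone sialoprotein that nucleates mineral, had the highest ratio of the named genes, with 95 UMIs (1.58 CPM) at 7 dpi and 534 CPM at 21 dpi (8.40, interval 8.11 to 8.71). The Gli1- libraries held 18.6 and 313 CPM, and uninjured cells 242 (Gli1+) and 21.8 CPM (Gli1-). Bglap, osteocalcin, was at 1.30 and 51.1 CPM (5.30), under the 1555 CPM of uninjured Gli1+ cells. Spp1, osteopontin, was at 229 and 1184 CPM (2.37), and Mgp, an inhibitor of calcification, at 953 and 2778 CPM (1.54). Runx2, the transcription factor of bone formation, was at 99.7 and 75.3 CPM (-0.41), and Pth1r, the receptor for parathyroid hormone-related protein, at 45.3 and 47.0 CPM (0.05). Bglap and its near copy Bglap2 can share reads, so their values are uncertain.

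The UMIs of these skeletal genes lay in few cells. At 21 dpi the 1% of gated cells with the most UMIs of each gene held 91.2% of Col2a1, 96.0% of Ibsp, 98.5% of Bglap and 95.7% of Snorc UMIs. After each cell was thinned to 2000 UMIs, 4.22% of 5717 cells held a Col2a1 UMI at 21 dpi and 2.33% of 5158 at 7 dpi, beside 3.91% of 230 and 3.33% of 90 cells in the endothelial gate (Cdh5 and Pecam1 present, Pdgfra and Ptprc absent), which should lack it. The share of cells with Col2a1 was therefore not above background at this depth. Cells with UMIs of at least 2 of 9 cartilage or bone genes made up 13.3% of gated cells at 7 dpi and 18.5% at 21 dpi. That share uses full depth, with medians of 15686.5 and 14688 UMIs in these cells and 11028 and 9946 in the gate. At 7 dpi they held 72.5 CPM of Col2a1, 6.45 of Ibsp and 3.18 of Bglap. The name cartilage or bone subset, used below, states how the cells were picked and not their type. Col2a1, Ibsp and Bglap are among those 9 genes, so that their ratios without these cells (0.26, 4.59 and 0.94) are lower by construction. Of genes not used to pick the cells, Matn4 was at 2.59 without them, Spp1 at 1.08 and Snorc at 0.67. Col10a1 was at 1.26 without them, on few UMIs, since the picked cells held 7 of its UMIs at 7 dpi and 1370 at 21 dpi. The cartilage list median over the 8 members then left was -0.23, also lower by construction, since 6 of the genes used are members. In the uninjured Gli1+ library, cells with Xist alone were higher than cells with Y-linked UMIs alone by a log2 ratio of 2.33 (interval 1.88 to 2.82) for Col2a1, 1.96 (1.89 to 2.04) for Bglap and 1.12 (0.99 to 1.26) for Ibsp, the direction of their 21 dpi ratio. Spp1, of the same bone list, stood at -3.65 (-3.81 to -3.49), against it. These intervals count each UMI as independent and leave out the spread between cells. Of 1598 gated cells in that library 54 held at least 2 of the 9 genes. A few cells can therefore set these ratios, and the intervals are too narrow. The part of sex in these results cannot be told apart from time.

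Of 11 tested tendon genes 5 were higher and none lower, with a median of 0.88. Fmod, fibromodulin, which shapes collagen fibrils, was at 191 CPM at 7 dpi and 618 CPM at 21 dpi (1.70), and Comp, a pentameric matrix protein of tendon and cartilage, at 171 and 562 CPM (1.71). Uninjured Gli1+ cells held 639 CPM of Fmod and 722 CPM of Comp, so both were lowest at 7 dpi in this sort. Gli1- cells were different in the uninjured library, with 59.3 CPM of Fmod and 95.6 CPM of Comp, but the 2 uninjured sorts also differed in sex. Angptl7, a secreted angiopoietin-like protein, was at 17.9 and 132 CPM (2.88) and Cilp2, a cartilage and tendon matrix protein, at 10.1 and 74.1 CPM (2.88). Scx, scleraxis, the transcription factor of tendon progenitors, was at 52.9 and 58.6 CPM (0.15), and Mkx, mohawk, a homeobox factor of tendon, at 12.8 and 18.7 CPM (0.55). The matrix gene Thbs4, the most abundant member, was at 653 and 1198 CPM (0.88), also within 2-fold.

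Small leucine-rich proteoglycans, which coat collagen fibrils, had 6 of 9 tested members higher and none lower, with a median of 1.10. Dcn, decorin, was at 3857 and 8751 CPM (1.18) and 18368 CPM in uninjured Gli1+ cells, and Lum, lumican, at 996 and 2136 CPM (1.10). The genes of collagens I and III hardly differed. Col1a1 had a ratio of 0.03, Col1a2 of 0.05 (10382 and 10739 CPM) and Col3a1 of -0.03 (14237 and 13968 CPM). Col5a1, another fibrillar collagen gene, had the lowest ratio of the list (-0.55). The list of 17 fibrillar and network collagens had 1 higher member, Col18a1 (34.7 and 80.1 CPM, 1.21). None of 25 collagen folding and crosslinking genes passed 2-fold in either direction, and their median was -0.13.

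**Figure D2:**
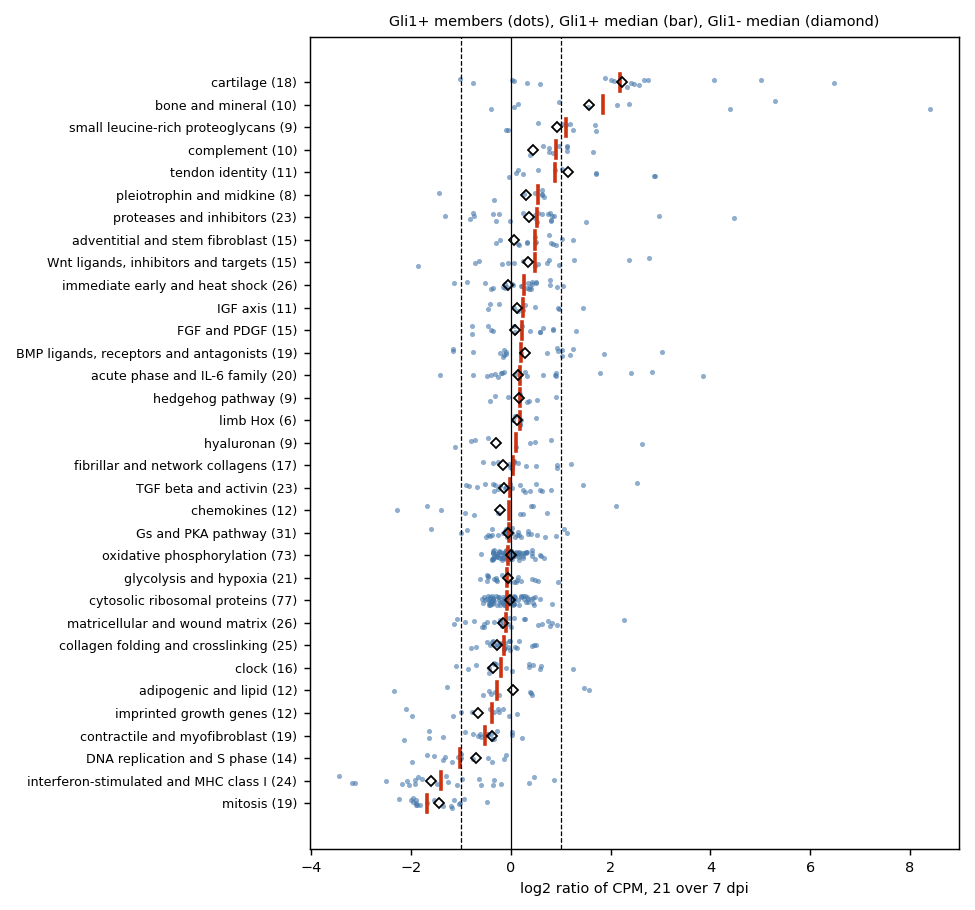
Log2 ratio of 21 over 7 dpi (x axis) of the tested members of each list (y axis, number tested in brackets) with 5 or more tested members. Dots are members in Gli1+ cells, bars their median and diamonds the median in Gli1- cells. The cartilage list has the highest Gli1+ median (2.19) and the mitosis list the lowest (-1.68), and the ribosomal and oxidative phosphorylation lists stay inside the dashed 2-fold lines.

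Of 26 tested genes of the wound matrix 1 was higher, 2 were lower and 23 were within 2-fold, with a median of -0.10, where 2.71% and 3.65% of all tested genes were higher and lower. Tnc, tenascin C, a matricellular protein of healing tissue, was at 2021 CPM at 7 dpi and 912 CPM at 21 dpi (-1.15), beside 1788 and 968 CPM in Gli1- cells and 105 and 23.4 CPM in uninjured Gli1+ and Gli1- cells. Tnn, tenascin N, was at 388 and 184 CPM (-1.08), and in cells with fewer than 10 Krt5 and Krt14 UMIs Tnc stood at -0.88 and Tnn at -0.71. Postn, periostin, did not pass 2-fold, at 3379.8 and 1799 CPM (-0.91). Ccn3, a matricellular growth regulator, was higher, at 38.2 and 184 CPM (2.27). Of 19 tested contractile genes 4 were lower and none higher, with a median of -0.51. Tpm2, tropomyosin 2, was at 333 and 106 CPM (-1.65), Tagln, transgelin, at 409 and 132 CPM (-1.63), and Acta2, the smooth muscle actin of myofibroblasts, at 646 and 252 CPM (-1.36). With cells gated by Prrx1 in place of Pdgfra, Acta2 stood at -0.54 and Tagln at -0.71. Of the 6 mural markers, the pericyte gene Rgs5 was at 17.7 and 61.7 CPM and Myh11, a smooth muscle myosin, at 9.80 and 8.64 CPM.

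Adventitial fibroblast genes, which mark a perivascular and sheath-like progenitor state, had 2 of 15 tested members higher and none lower, with a median of 0.49. Clec3b, tetranectin, was at 181 and 426 CPM (1.24) and Pi16, a peptidase inhibitor of adventitial fibroblasts, at 219 and 442 CPM (1.02). Neither passed 2-fold in cells with fewer than 10 Krt5 and Krt14 UMIs (0.71 and 0.52), without cycling cells (0.97 and 0.75) or in thinned cells (0.99 and 0.84). Thinned to 2000 UMIs, 22.3% of cells at 7 dpi and 34.5% at 21 dpi held a Pi16 UMI, against 5.56% and 3.48% in the endothelial gate. Of 10 tested complement genes 4 were higher and none lower, with a median of 0.90, C4b (55.7 and 175 CPM, 1.65) the furthest and Serping1, the C1 inhibitor, the most abundant (696 and 1511 CPM, 1.12). Apod, a lipid-binding lipocalin, was at 374 and 1039 CPM (1.47), and Lpl, lipoprotein lipase, at 74.6 and 219.9 CPM (1.56). In the same adipogenic and lipid list of 12 (median -0.28) Fabp5, a fatty acid-binding protein, and Fabp4, its adipocyte relative, were lower, with Fabp4 at 89.3 and 36.8 CPM (-1.28) and at -0.04 under the Prrx1 gate. In cells with fewer than 10 Krt5 and Krt14 UMIs Serping1 stood at 0.72 and Apod at 0.99.

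Proliferation genes were lower at 21 dpi nearly throughout. Of 19 tested mitosis genes 17 were at least 2-fold lower and none higher, with a median of -1.68. Top2a, the topoisomerase that untangles replicated chromosomes, was at 60.0 and 12.8 CPM (-2.23), and Mki67, the proliferation antigen Ki-67, at 51.4 and 13.2 CPM (-1.96). Uninjured Gli1+ cells held 5.95 CPM of Top2a, and Gli1- cells 35.8 CPM at 7 dpi and 10.8 CPM at 21 dpi. Of 14 DNA replication genes 9 were lower and none higher (median -1.03), with Uhrf1, which maintains DNA methylation at the fork, at 16.3 and 4.10 CPM (-1.99). Cells with UMIs of at least 2 of 8 cycle genes were 24.6% of the gate at 7 dpi and 4.07% at 21 dpi. That share uses each cell's full depth. In thinned cells (2000 UMIs each) 5.68% held a Top2a UMI at 7 dpi and 1.22% at 21 dpi, beside 7.78% and 2.17% in the endothelial gate. Dividing endothelial cells would hold Top2a too, so their share is no measure of background for this gene.

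The CHR letters TTTGAA are a known promoter element of genes expressed late in the cycle. They stood on either strand in 12 of the 17 mitosis genes with a matched promoter (70.6%), 903 of 6766 tested genes (13.3%) and none of 11 matched DNA replication genes. Examples from the promoters of lower mitosis genes follow, with 1 match in capitals in each. The Mki67 stretch holds a second match, left in lower case.
Mki67, chr7:135716470-135716515, minus strand: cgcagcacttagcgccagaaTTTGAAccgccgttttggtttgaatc
Prc1, chr7:80294426-80294471, plus strand: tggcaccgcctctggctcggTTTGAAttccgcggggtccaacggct
Cdk1, chr10:69352958-69353003, minus strand: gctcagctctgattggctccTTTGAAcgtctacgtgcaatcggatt
Prc1, a microtubule bundler of the dividing spindle, was at 36.9 and 9.54 CPM (-1.95), and Cdk1, the kinase that starts mitosis, at 33.4 and 9.43 CPM (-1.82).

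Interferon-stimulated genes formed a further group that was lower at 21 dpi. Of 24 tested members, MHC class I included, 15 were at least 2-fold lower and none higher, with a median of -1.39. Isg15, a ubiquitin-like antiviral protein, stood at 65.2 CPM at 7 dpi and 6.02 CPM at 21 dpi (-3.44, interval -3.60 to -3.28). Gli1- cells held 57.7 CPM at 7 dpi and 7.12 CPM at 21 dpi, and uninjured Gli1+ and Gli1- cells 19.1 and 32.4 CPM, so 21 dpi lay under the uninjured level in both sorts. Ifit1, which binds foreign RNA, was at 28.7 and 3.14 CPM (-3.19), Oasl2, an oligoadenylate synthetase-like protein, at 40.1 and 4.57 CPM (-3.13), Irf7, the transcription factor that amplifies the response, at 21.1 and 3.70 CPM (-2.51), and Bst2, tetherin, at 134 and 31.8 CPM (-2.08). Ifitm3, the most abundant member, was at 1932 and 1276 CPM (-0.60). Members of antigen presentation differed less, with B2m at 224 and 309 CPM (0.47) and H2-K1 at 243 and 211 CPM (-0.21), and Irf1 was at 139 and 253 CPM (0.86). Isg15 was not particular to the gate, since other cells held 173 and 52.8 CPM.

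The interferon-stimulated response element was searched on both strands by its core letters, GAAA on each side of 2 bases of any kind. These stood in 9 of the 18 list members with a matched promoter (50%) and in 251 of 6766 tested genes (3.71%). They were in 5 of the 11 members past 2-fold and in 4 of the 7 that were not, so the letters did not divide the list by its ratio. One match of each of 4 lower members is shown in capitals, and the reverse complement appears where the element lies on the other strand.
Isg15, chr4:156200861-156200910, minus strand: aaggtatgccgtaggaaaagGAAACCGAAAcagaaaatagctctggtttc
Ifit1, chr19:34640784-34640833, plus strand: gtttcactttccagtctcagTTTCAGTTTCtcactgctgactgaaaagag
Bst2, chr8:71537567-71537616, minus strand: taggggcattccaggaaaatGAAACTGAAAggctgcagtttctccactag
Gbp7, chr3:142530263-142530312, plus strand: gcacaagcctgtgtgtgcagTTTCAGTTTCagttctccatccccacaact
Isg15 held overlapping matches, of which the middle one is marked, and the stretches of Bst2 and Ifit1 each hold 1 further match in lower case, which in Bst2 overlaps the marked one. Gbp7, a guanylate-binding protein, was at 21.9 and 7.83 CPM (-1.48).

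Chemokines moved in both directions, with 1 of 12 higher, 3 lower and a median of -0.03. Ccl2, which recruits monocytes, was at 996 CPM at 7 dpi and 204 CPM at 21 dpi (-2.29), beside 975 and 221 CPM in Gli1- cells and 133 and 287 CPM in uninjured Gli1+ and Gli1- cells. Ccl7, a related monocyte chemokine, was at 1300.5 and 493 CPM (-1.40), and Cxcl10, an interferon-induced T cell chemokine, at 105 and 32.7 CPM (-1.68). Cxcl14, a chemokine of resting fibroblasts and epithelia, was higher, at 266 and 1147 CPM (2.11). In thinned cells 55.4% held a Ccl2 UMI at 7 dpi and 17.2% at 21 dpi, above the 20% and 4.78% of the endothelial gate. The endothelial share fell as well, and the part of background in this step was not tested.

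**Figure D3:**
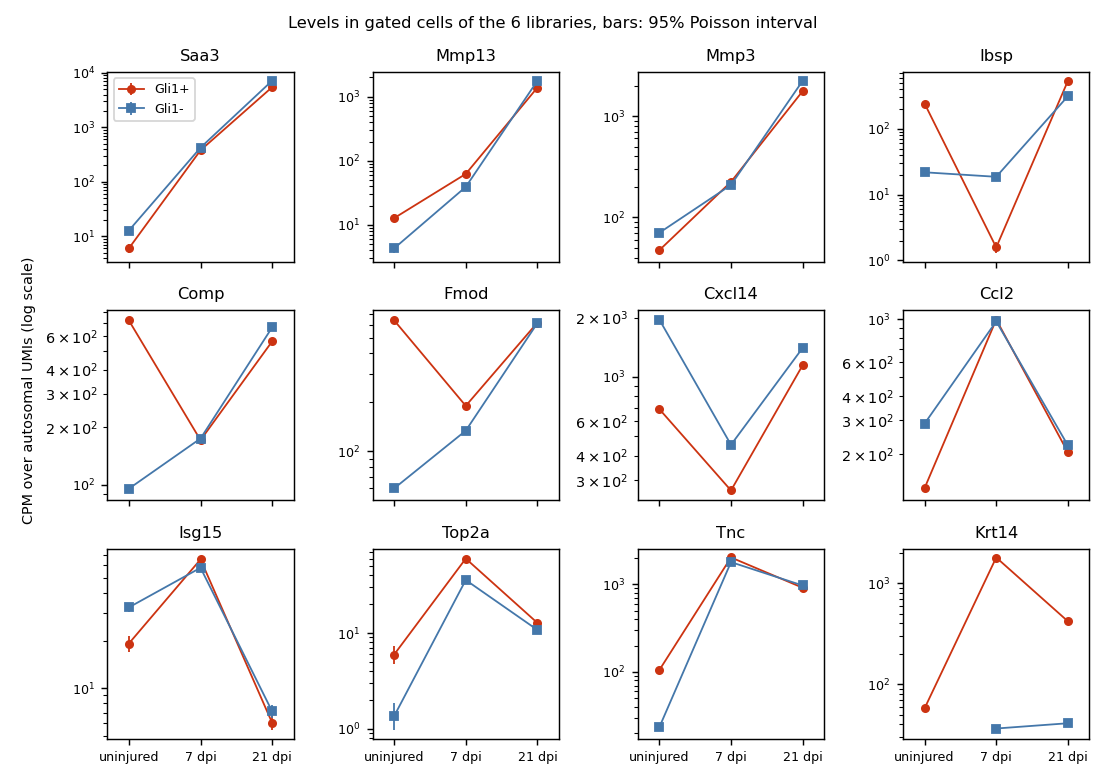
Level (y axis, CPM over autosomal UMIs, log scale) of 12 genes in gated cells of uninjured, 7 dpi and 21 dpi libraries (x axis), circles for Gli1+ and squares for Gli1- cells, bars for 95% Poisson intervals, which are mostly smaller than the symbols. Saa3, Mmp13 and Mmp3 are highest at 21 dpi in both sorts, Ccl2, Isg15, Top2a and Tnc are highest at 7 dpi, and Krt14 is far higher in Gli1+ than in Gli1- cells after injury (its 0 in uninjured Gli1- cells is not drawn).

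Growth control genes included several that are imprinted, that is, expressed from 1 parental copy. H19, a noncoding RNA of growing tissue, was at 386 and 89.7 CPM (-2.10), with 545 and 100.5 CPM in Gli1- cells and 32.1 and 7.54 CPM in uninjured Gli1+ and Gli1- cells. Mest, a gene of growing mesenchyme, was at 189 and 48.1 CPM (-1.98). Of 12 imprinted genes tested 3 were lower, these and Mirg, and none higher, with a median of -0.38. Ptn, pleiotrophin, a heparin-binding growth factor, was at 581 and 215 CPM (-1.44), the 1 member past 2-fold among 8 pleiotrophin and midkine genes (median 0.55), and Mdk, midkine, was at 144 and 202 CPM.

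Bone morphogenetic protein (BMP) genes had a median of 0.21 over 19 tested members, of which 6 were higher and 2 lower. Grem1, gremlin, a BMP antagonist, was at 10.8 and 87.8 CPM (3.02), with 1.10 CPM in uninjured Gli1+ cells. Bmp2, a ligand that induces bone, was at 20.01 and 73.2 CPM (1.87), Bmp4 at 9.21 and 21.9 CPM (1.25), and Id3, a target of the pathway, at 256 and 583 CPM (1.19). The receptor Bmpr1b was lower (75.7 and 33.8 CPM, -1.16). Among 23 TGF beta and activin genes (median -0.03) the serine protease inhibitor Serpine2 was at 79.6 and 457 CPM (2.52) and Inhba, the activin A subunit, at 56.1 and 153 CPM (1.44), and none was lower.

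Wnt genes had 3 of 15 members higher and 1 lower, with a median of 0.48. Wnt16, a ligand of joint and bone, was at 3.74 and 25.7 CPM (2.78), the secreted inhibitors were at 5.22 and 26.8 CPM (2.36) for Wif1 and 162 and 391 CPM (1.27) for Sfrp4, and Wnt4 was at 40.1 and 11.1 CPM (-1.85). Among cells with UMIs of at least 2 cycle genes Wnt4 did not fall (0.10). Of 11 genes of the insulin-like growth factor axis (median 0.24) Igfbp5, a binding protein of the ligands, was the 1 past 2-fold, at 504 and 1377 CPM (1.45), and Igf1 was at 903 and 991 CPM. Of 15 FGF and PDGF genes (median 0.22) Fgf10 was the 1 past 2-fold, at 8.19 and 20.4 CPM (1.31). Single members of these 2 lists are not read as a result about them, since 2.71% of all tested genes were higher.

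The Gs and protein kinase A (PKA) pathway carries signals from hormone receptors through the stimulatory G protein, cyclic AMP and PKA, and it is known for its hold over skeletal differentiation. Of 31 tested members 2 were higher and 1 lower, with a median of -0.04, where 2.71% and 3.65% of all tested genes were higher and lower. Gnas, the stimulatory G protein subunit, was at 1650.3 CPM at 7 dpi and 1604 CPM at 21 dpi (-0.04, interval -0.05 to -0.03), beside 1473 CPM in uninjured Gli1+ cells. The catalytic subunit gene Prkaca was at 21.4 and 21.8 CPM (0.02) and the regulatory subunit gene Prkar1a at 139.5 and 143 CPM (0.03). Phosphodiesterases that break down cyclic AMP were the higher members, Pde7b (75.5 and 165 CPM, 1.13) and Pde3a (47.0 and 97.9 CPM, 1.06). Pthlh, parathyroid hormone-related protein, a ligand upstream of Gs, was lower (60.3 and 19.9 CPM, -1.60). The 9 tested genes of the hedgehog pathway, of which Gli1 is itself a target, had none past 2-fold and a median of 0.18, with the receptor Ptch1 at 25.3 and 24.3 CPM and the transducer Smo at 47.2 and 58.9 CPM.

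Lists of general cell function were close to the median of all genes. None of 77 cytosolic ribosomal protein genes, 73 oxidative phosphorylation genes, 21 glycolysis and hypoxia genes or 6 limb Hox genes passed 2-fold, and their medians were -0.09, -0.06, -0.07 and 0.18. Of 16 clock genes 1 was higher, Arntl (21.99 and 51.9 CPM, 1.24), and 1 lower, Per2 (68.7 and 32.2 CPM, -1.09), with a median of -0.19. Over all tested genes 2.71% were higher and 3.65% lower. The 1 tested granzyme gene, Gzme, was at 19.98 and 5.34 CPM (-1.90).

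The genes with the lowest ratios were mainly epidermal or also present in other cells. Of the 15 lowest with an established symbol and a mean of at least 20 CPM, Krt2, Krt1, Krt10, Calm4, Lypd3 and Lgals7 are known from keratinocytes. Krt14, the keratin of basal keratinocytes, was at 1795 CPM at 7 dpi and 419 CPM at 21 dpi (-2.10), where other cells held 3557 and 1098 CPM, and it stood at 36.4 and 41.0 CPM in the Gli1- libraries. In thinned cells 75.3% of the gate and 86.7% of the endothelial gate held a Krt14 UMI at 7 dpi, and 16.8% and 17.4% at 21 dpi, so the mesenchymal share was not above that of the endothelial gate at either time. Fabp5 was at 2538 and 500.1 CPM (-2.34), beside 3015 and 750 CPM in other cells, and was also lower in the Gli1- libraries (907 and 193 CPM). Cntn5, a neural adhesion protein, was at 159 and 0.29 CPM (-9.10), beside 277 and 0 CPM in other cells and 502, 194 and 0.36 CPM in uninjured, 7 dpi and 21 dpi Gli1- cells. The linker histone genes H1f5 (63.3 and 7.67 CPM, -3.05) and H1f4 (72.2 and 9.86 CPM, -2.87), Vtn, vitronectin (48.3 and 6.06 CPM, -2.99), and Klk1, a kallikrein protease (77.4 and 8.49 CPM, -3.19), completed the 15 with Fam25c, Stfa3, Isg15, Oasl2 and Cntn5. The size of 2 of these depended on the processing, with Klk1 between -3.76 and -1.21 and Vtn between -3.53 and -1.51 over the alternatives.

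The lower genes were therefore also read by their level in other cells, a choice made after the data were seen. Each gene was set against other cells at the time of its higher level, 7 dpi for the lower genes, so that nothing is read from how many passed. The 15 lowest of those at least 2-fold above other cells began with Klk1, Ccl2, Kif26b, H19, Prss35 and Crabp1. Kif26b, a kinesin relative of migrating mesenchyme, was at 161 and 33.6 CPM (-2.26), and Crabp1, a retinoic acid-binding protein of embryonic and regenerating dermis, at 202 and 51.7 CPM (-1.97), with 13.1 CPM in uninjured Gli1+ cells. In cells with fewer than 10 Krt5 and Krt14 UMIs 188 genes were higher and 260 lower.

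**Figure D4:**
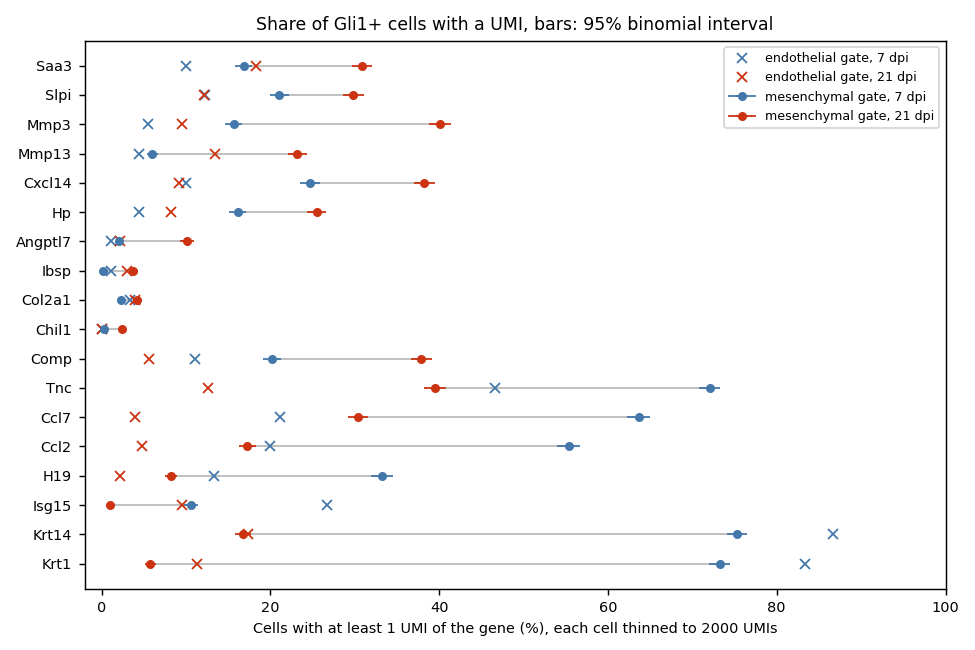
Share of cells with at least 1 UMI (x axis, %) for 18 genes (y axis), each cell thinned to 2000 UMIs. Circles are gated Gli1+ cells with 95% binomial intervals, crosses are endothelial-gated cells of the same library, with 7 dpi in blue and 21 dpi in red. Mmp3 goes from 15.6% to 40.1% and Ccl2 from 55.4% to 17.2%, both apart from their crosses, whereas Krt14, Krt1, Isg15 and Col2a1 at 7 dpi lie at or below them.

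Shares of thinned cells with a UMI were set beside those of the endothelial gate. Mmp3 was held by 15.6% of thinned cells at 7 dpi and 40.1% at 21 dpi (endothelial gate 5.56% and 9.57%), and without thinning by 37.8% and 62.8%. Ctsk went from 42.2% to 68.5% (endothelial gate 16.7% and 10.4%), Apod from 37.6% to 61.4% (7.78% and 9.57%) and Comp from 20.2% to 37.9% (11.1% and 5.65%). Saa3 went from 16.8% to 30.9% (10% and 18.3%), a smaller step than its CPM. Its endothelial share rose as well, so no breadth is read from the Saa3 shares. The 1% of cells with the most Saa3 held 34.7% of its UMIs at 21 dpi. Ccl7 went from 63.6% to 30.3% (21.1% and 3.91%), and Tnc from 72.0% to 39.5% (46.7% and 12.6%). The shares of Acta2 (37.5% and 12.3%) were close to the endothelial ones (30% and 11.3%), which fell with them, so no breadth is read from them. Ccn3 went from 6.61% to 23.1% (1.11% and 6.09%) and Ptn from 39.2% to 17.1% (17.8% and 7.39%), whereas Mest (21.6% and 5.82%) lay close to its endothelial shares (18.9% and 2.61%). Without thinning these 3 were held by 21.05% and 45.6%, 71.9% and 36.9%, and 50.5% and 16.5% of cells. Endothelial shares of Mmp3, Apod and Ccn3 rose with the gate, and those of Ccl7, Tnc and Ptn fell with it. The part of background in these steps was not tested.

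The cells in which the 21 dpi genes were detected overlapped in part. In thinned 21 dpi cells Mmp13 was held by 41.4% of the 1765 cells with a Saa3 UMI and 15.03% of the 3952 without, and by 47.3% of the 1245 cells with a Spp1 UMI and 16.5% of the 4472 without. Slpi was held by 49.9% of cells with and 20.9% of cells without Saa3. Saa3 had the opposite relation to Comp, with 26.6% of the 2166 cells with Comp and 33.5% of the 3551 without. Cilp2 was held by 16.7% of cells with Comp and 3.91% without. These shares describe cells of 1 library, which are not replicates, and no background share was taken off them.

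Ratios were then taken inside subsets of the gate, since summed UMIs cannot tell a shift in cell makeup from a change within cells. The subsets were cells with a UMI of Pi16 or Dpp4 (2597 cells at 7 dpi and 3246 at 21 dpi), cells with both Scx and Fmod (962 and 1164), the cartilage or bone subset (692 and 1075), the cycle subset (1285 and 236), and cells in none of these (1428 and 1500). The first 4 overlap. Saa3 was higher in all 5, from 3.07 in the Pi16 or Dpp4 cells to 5.08 in the cells of no subset. Mmp13 ranged from 3.58 in the Pi16 or Dpp4 cells to 5.11 in the cycle cells. Cxcl14 lay between 1.73 and 2.47. Angptl7 was between 1.09 in cycle cells and 3.48 in cells of no subset. The ratio of Comp lay between 1.12 and 2.09. Not all higher genes held in each subset. In the cycle cells Apod stood at 0.12, Sfrp4 at -0.03 and Fgf10 at -0.25.

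Of the lower genes given here, Ccl2, Isg15, Ptn and Tnc kept their direction in each subset, and Krt14 and Fabp5 did not. Ccl2 lay between -2.40 and -1.70, Isg15 between -4.00 and -3.14, and Ptn between -1.91 and -1.20. Tnc was at -1.38 in Pi16 or Dpp4 cells and did not reach 2-fold in cycle cells (-0.99) or in cells of no subset (-0.77). The cycle subset at 21 dpi stood apart in epidermal genes, with Krt14 at 2399 CPM at 7 dpi and 2953 CPM at 21 dpi (0.30) and Fabp5 at 2907 and 3161 CPM (0.12), while the cells of no subset had Krt14 at 1970.3 and 325 CPM (-2.60) and Fabp5 at 2538 and 435 CPM (-2.54). Ibsp was at 6.45 and 2016 CPM in the cartilage or bone subset, which it helped to define, and at 0.485 and 20.1 CPM in cells of no subset. Of skeletal genes not used to define a subset, the log2 ratio in those cells was 1.98 for Matn4 and 1.56 for Spp1. It was 0.33 for Snorc (13 UMIs at 21 dpi) and -0.05 for Col10a1 (6 UMIs at each time). Col2a1 (0.27) and Bglap (-0.98, 23 and 12 UMIs) also helped to define the cartilage or bone subset, so their ratios there are lower by construction. The intervals of Snorc, Col10a1, Col2a1 and Bglap include 0.

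**Figure D5:**
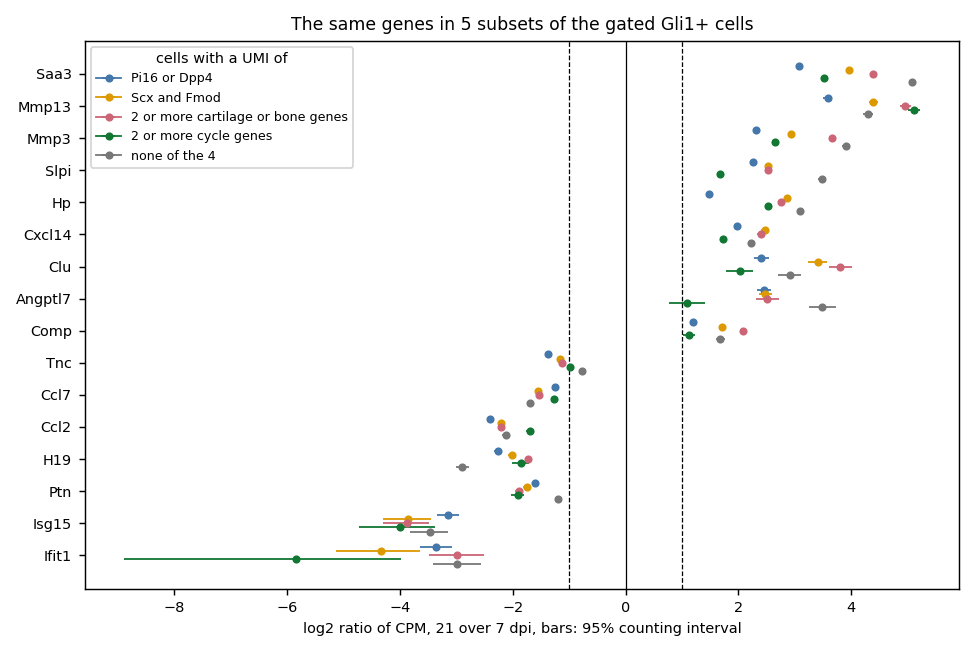
Log2 ratio of 21 over 7 dpi (x axis, bars 95% counting intervals) of 16 genes (y axis) in 5 subsets of gated Gli1+ cells, defined by UMIs of the genes in the legend. Saa3, Mmp13, Mmp3, Slpi, Hp, Cxcl14, Clu, Angptl7 and Comp lie above 1 in each subset, and Ccl7, Ccl2, H19, Ptn, Isg15 and Ifit1 lie below -1, while Tnc lies between -1.38 and -0.77.

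Gli1- cells of the same time points gave a second view of both times. Among them 212 of 8446 genes were higher and 182 lower. Of the 231 genes higher in Gli1+ cells 149 (64.5%) were also higher in Gli1- cells, which is 70.3% of the Gli1- list. Of the 311 lower in Gli1+ cells 140 (45.0%) were also lower in Gli1- cells, 76.9% of that list. No gene was higher in Gli1+ and lower in Gli1- cells, and 1 was lower in Gli1+ and higher in Gli1- cells, the keratinocyte gene Krtdap (-1.90 and 1.62), named after its values were seen. The 2 sorts had the same sex at each of these injury times and may share mice, so they are not taken as an independent repeat. The difference between them was not tested. Among the named genes Ibsp (8.40 in Gli1+ and 4.07 in Gli1- cells) and Bglap (5.30 and 1.95) were further apart than Saa3 (3.85 and 4.08) or Isg15 (-3.44 and -3.02). Sox6 was at -1.02 in Gli1+ and 0.28 in Gli1- cells, and Wnt4 at -1.85 and 0.82. In the cycle subset of Gli1+ cells neither Wnt4 (0.10) nor Krt14 (0.30) fell, and whether the Wnt4 UMIs are epidermal was not tested.

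Uninjured cells placed the 2 times against a baseline. Of the 231 genes higher at 21 dpi 116 were higher still in uninjured Gli1+ cells, 65 lay between the 7 and 21 dpi levels there and 50 lay under the 7 dpi level, the last like Saa3 and Mmp13. Of the 311 lower genes 187 were lower still in uninjured cells, 100 lay between and 24 were above the 7 dpi level. The 7 dpi level helped to pick these genes, so an uninjured level on the far side of it is favoured by the choice. The same split was not counted over all tested genes, so nothing is read from these counts. The uninjured Gli1+ library held 1014 gated cells with Xist alone and 377 with Y-linked UMIs alone, which allowed a look at sex with time fixed. These cells come from different mice of the same library, so sex cannot be told apart from mouse there. In it 30 of 7950 tested genes were at least 2-fold higher in the Xist cells and 46 lower. Among the genes higher at 21 dpi these were 8 and 15 of 190, and among the lower genes 7 and 8 of 165. Genes named above that were past 2-fold between these cells at a mean of at least 10 CPM fell on both sides. In the direction of their 21 dpi ratio, the log2 ratio of Xist over Y-linked cells was 2.33 for Col2a1, 2.08 for Bglap2, 1.96 for Bglap, 1.12 for Ibsp, 1.02 for Mmp3, -1.21 for Mest and -4.98 for Klk1. Against it stood Spp1 at -3.65, Cilp2 at -2.32, Fmod at -1.25, Inhba at -1.24, Angptl7 at -1.16, Mmp13 at -1.15, Ctla2a at -1.05, Tnc at 1.29 and H19 at 2.16. Cntn5 (-6.83, interval -12.2 to -4.27) and Saa3 (4.04, interval 2.14 to 7.11) had the direction of their 21 dpi ratio at means of 5.65 and 4.76 CPM. Isg15 and Ccl2 were both at -0.01.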

How the data were processed

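Gli1+ and Gli1- tendon cells were sorted, and the authors made 10x 3′ libraries and deposited UMI counts per gene and barcode. The matrix headers name Cell Ranger 9.0.0, and the submitters' processing notes name Cell Ranger 3.1.0, STAR and mm10. Counts were summed over gated cells and divided by autosomal UMIs (CPM). Chromosomes came from GENCODE M21, which lacked 1684 of 33696 features (0.18% of UMIs in both libraries). A gene with no UMI in a library took a floor of 3 UMIs. Ratio intervals are exact binomial, level intervals exact Poisson and share intervals exact binomial. No doublets were removed in the main comparison. Genes were named by rule: the 15 highest and 15 lowest ratios at a mean of 20 CPM, 8 and 8 at 500 CPM, and of each of 34 lists 4 members and the most abundant. Further list members, such as Il6, Sox9, Runx2 and Ptch1, were named for their known roles after their values were seen. Members and lists were chosen with earlier results of these data known. The ratio was tested on simulated data. Alternatives used scanpy 1.11.5 (Scrublet) and edgeR 4.0.16 (TMM). A few list members and 1 alternative gate are not reported here.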

Additional observations from a re-analysis of the deposited data

Results flagged for a closer look

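Krt10 was lower at 21 dpi in Gli1+ cells (log2 ratio -3.24) and higher in Gli1- cells (0.25), and Krt14 was lower in Gli1+ (-2.10) and higher in Gli1- cells (0.17). Each direction rests on 1 library per time, and the difference between the sorts was not tested. Outside the autosomal comparison, Xist stood at 645 CPM over all genes in the gated Gli1+ cells at 21 dpi and 0.016 CPM at 7 dpi, and Ddx3y, which is Y-linked, at 71.3 CPM at 7 dpi and 2.52 CPM at 21 dpi. The Gli1- libraries had the same order, with Xist at 0.070 and 647 CPM at 7 and 21 dpi.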

How the results depend on the processing

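Against 231 genes at least 2-fold higher at 21 dpi and 311 genes at least 2-fold lower at 21 dpi, the counts were 534 and 1143 at a mean of at least 1 CPM, 102 and 88 at 50 CPM, 2269 and 4305 without a filter, 645 and 848 past a log2 ratio of 0.58, and 119 and 44 among genes at least 2-fold above other cells at the time of their higher level, a choice made after the data were seen from which nothing is read. Each of these tests other genes or another size. Under the other alternatives both counts stayed within 1.5 times, among them TMM scaling, Scrublet, thinning and Prrx1. Leaving out cells with 10 or more Krt5 and Krt14 UMIs (188 and 260) was also chosen afterwards. The cartilage list median (2.19) turned to -0.23 over 8 of 18 members without cartilage or bone cells, where the bone median (1.84) was 0.18 over 6 of 10. Without cycling cells the mitosis median (-1.68) was -0.51 over 4 of 19 members and the DNA replication median (-1.03) -0.23 over 8 of 14. Both kinds of cell were picked by genes of the cartilage, bone and mitosis lists, so that the falls of these lists are largely set by construction. At 50 CPM the medians were 0.32 for cartilage (7 members), -1.04 for mitosis (3), -0.15 for DNA replication (1) and -0.40 for interferon-stimulated genes (8, against -1.39). List medians nearer 0 changed sign too. The BMP median (0.21) was -0.13 at 50 CPM, and the hyaluronan median (0.11) reached -0.32 with fewer than 10 keratin UMIs. The adipogenic (-0.28) and clock (-0.19) medians were 0.54 and 0.60 over the 2 and 1 members at least 2-fold above other cells, which were kept by their level at the higher time, so nothing is read from these values. The medians of the collagen, collagen folding, matricellular, chemokine, Gs and PKA, TGF beta, glycolysis, ribosomal and oxidative phosphorylation lists, all within 0.13 of 0, also changed sign under at least 1 alternative. Of named genes past 2-fold, some came under it in at least 1 alternative. Their values nearest 0 were 0.94 for Dcn, 0.91 for Bmp4, 0.85 for Id3 and Sfrp4, 0.81 for Fgf10, 0.88 for Pde7b, 0.97 for Inhba, 0.94 for Col18a1, 0.99 for Pde3a and Hspa1b, -0.89 for Per2, -0.94 for Egr3, -0.99 for Has2 and -0.97 for Mirg. The TMM shift of 0.14 also brings Sox6 (-1.02) inside 2-fold. The stricter gate (14 cells at 7 dpi), Xist-only cells (0 at 7 dpi) and Y-only cells (5 at 21 dpi) gave no value. With 1 library per time no replicate could be left out. No paired analysis was possible because each sort and time has 1 library.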
